A study of Homo sapiens with 30 samples.

Results

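The 10 genes picked for their changes in MV4-11 cells that overexpressed miR-1 are described here across every group of both experiments. They are DIPK1C, C12orf75, MAGED1, PPP1R3A, WASF1, KIAA0040 and NRIP1, which fell in that comparison, and AGK, CNKSR2 and ADAMTS9, which rose. They were selected on their measured change in MV4-11 cells carrying the miR-1 vector (OE) against MV4-11 cells carrying the empty vector (EV), and are 10 of the 17542 genes tested there, out of 60675 listed. All 10 are among the 31 genes called in that comparison, but by size of change alone NRIP1 ranked 859 and CNKSR2 1081 of all tested genes. That comparison therefore describes these genes and tests nothing about them. The tests concern other libraries: Molm-14 OE, and the knockout experiment, which listed 58051 genes and tested 14490, the 10 included.

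RNA was sequenced from 3 human acute myeloid leukemia (AML) lines in 30 libraries, with n = 3 in each of 10 groups. The overexpression series used MV4-11 and Molm-14, both with an internal tandem duplication in FLT3. Cells carried a lentiviral vector with an EF1a promoter, a GFP marker and the MIR1-2 hairpin (OE), or an empty control vector with GFP only (EV). The knockout series added THP-1 to these lines, and cells carried a lentiviral CRISPR/Cas9 vector with GFP and 1 guide against MPC1 (KO), or an empty vector (EV). THP-1 is a monocytic AML line without the FLT3 duplication. All groups, EV included, were transduced with a lentivirus, and whether the 3 libraries of a group came from separate cultures is not stated, so p-values measure the spread between these libraries, which may be technical. In bulk RNA, a small change in all cells and a large change in some of them cannot be told apart.

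A microRNA such as miR-1 guides a silencing complex to messenger RNAs whose 3′ UTR pairs with its seed, bases 2 to 8, and the paired messages are usually repressed and degraded. Its textbook home is heart and skeletal muscle. MPC1 is part of the mitochondrial pyruvate carrier of the inner membrane, so its loss limits the pyruvate that feeds oxidative phosphorylation (OXPHOS). The paper first asked how lower OXPHOS, reached by deleting MPC1, alters microRNA expression in AML cells. It reports that miR-1 rose after this deletion in both lines with the FLT3 duplication, and did not rise in THP-1. It then asked what forced expression of miR-1 does to AML cells.

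The mature miR-1 and the sites that could pair with it are shown because they separate the 10 genes into those with a perfect seed match and those without. The mature sequence, from RefSeq on GRCh38.p14 (chr18:21829015-21829036, minus strand, within MIR1-2), has its seed in capitals. The site sequences were read from the GENCODE canonical transcripts on GRCh38 with the bases before each site in lower case and the site in capitals.
hsa-miR-1-3p: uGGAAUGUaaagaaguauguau
DIPK1C site: agtcacaaactgacACATTCCA
KIAA0040 site: gtactcataattggACATTCCA
The DIPK1C site lies at chr18:74435148-74435169 (minus strand) and begins at base 1346 of a 3′ UTR of 1726 bases. The KIAA0040 site lies at chr1:175160084-175160105 (minus strand) and begins at base 623 of a 3′ UTR of 3728 bases. The coordinates cover the whole printed stretch, and the base is counted to the first capital.

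Both sites are 8mers (ACATTCCA). The sense strand of the 3′ UTR was also searched for 7mer-m8 (ACATTCC) and 7mer-A1 (CATTCCA) sites outside an 8mer, which contains both. None was found in the other 8 genes, whose 3′ UTRs ran from 217 bases in MAGED1 to 3481 in NRIP1. An 8mer was thus present in 2 of 10 genes, against 5.32% of the 12567 tested genes of the overexpression series with an annotated 3′ UTR, and any of the 3 site types in 2 of 10 against 21.9%. A match of letters describes the sequence and does not show that miR-1 bound there.

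The libraries matched their labels where this could be examined. MPC1 did not overlap between KO and EV in any line and was lower in KO, with log2 fold changes of −1.18 in MV4-11, −1.04 in Molm-14 and −0.84 in THP-1. MIR133A1HG, the transcript that contains MIR1-2, had 34 to 73 counts in each OE library and 0 in each EV library of the overexpression series. Its counts in OE can come from the vector. In the knockout series it had 0 counts in every library, KO included. These are counts of the long transcript and not of mature miR-1. All 10 myeloid markers examined, from PTPRC to RUNX1, were present in every library, while HBB and HBA1, of erythroid cells, were at 0 in all 12 libraries of the overexpression series. Of the 18 markers of other cell types, KRT8 stood at 4.91 to 8.30 CPM in the overexpression series and reached 3.06 CPM in the knockout series, CKM reached 7.28 CPM in the knockout series, and the rest had at most 1.99 CPM. Within MV4-11, the mean log2 CPM of 21 interferon-stimulated genes was 5.19 in OE replicate 1 and 3.13 in EV replicate 3, against 0.72 to 1.03 in the other 4 libraries. These 2 libraries stand apart, and values without them are given below.

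In MV4-11 OE the 7 genes that fell kept between 10.7% and 60.4% of their EV level, and among the 3 that rose ADAMTS9 came from almost no counts. All 10 genes were past a 5% false discovery rate (FDR), where 0.177% of all tested genes were, and none overlapped between OE and EV, as in 9.17% of all tested genes. Both counts follow from how the genes were chosen. Levels are given in counts-per-million (CPM) scaled by TMM factors, and log2 fold changes are the edgeR fit with its standard error (SE).

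DIPK1C encodes a kinase-like protein of the secretory pathway (ENSG00000187773, chromosome 18, 74434775 to 74457944). Its level in the MV4-11 EV libraries was 17.6, 15.5 and 14.3 CPM, and in the OE libraries 1.49, 1.81 and 1.72 CPM. Every OE library was far below every EV library. The log2 fold change was −3.23 (SE 0.198), the steepest fall of the 7 genes. DIPK1C is also one of the genes with an 8mer.

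C12orf75 encodes a small protein whose function is poorly known (ENSG00000235162, chromosome 12, 105235290 to 105396097). It stood at 9.32, 9.36 and 8.96 CPM in MV4-11 EV and at 1.20, 1.34 and 1.72 CPM in MV4-11 OE, a fitted log2 change of −2.69 (SE 0.200). The EV libraries were nearly equal, and the OE libraries lay below them without overlap. APPL2, which lies over C12orf75 on the opposite strand without sharing an exon, had 201 to 235 counts in EV and 207 to 212 in OE.

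PPP1R3A is the muscle subunit that targets protein phosphatase 1 to glycogen (ENSG00000154415, chromosome 7, 113876777 to 114075920). Its EV libraries held 6.02, 6.75 and 6.30 CPM and its OE libraries 1.14, 1.24 and 0.611 CPM, a fitted log2 change of −2.67 (SE 0.341). OE replicate 3 was the lowest, and the groups did not overlap.

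KIAA0040, a little-studied protein-coding gene (ENSG00000235750, chromosome 1, 175156986 to 175192999), carries the other 8mer. It was scarce in MV4-11, with 9, 16 and 13 counts in EV (0.521, 0.772 and 0.766 CPM) and 2, 3 and 2 counts in OE (0.120, 0.155 and 0.111 CPM). The fall, with a fitted log2 change of −2.35 (SE 0.392), rests on 7 counts in all of OE.

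MAGED1 is a MAGE family adaptor that binds the p75 neurotrophin receptor (ENSG00000179222, chromosome X, 51803007 to 51902354). It went from 10.1, 10.4 and 7.84 CPM in EV to 2.27, 2.32 and 2.44 CPM in OE, a fitted log2 change of −2.0045 (SE 0.249). The OE libraries were nearly identical, and EV replicate 3 was the lowest of its group.

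WASF1 (WAVE1) links Rac signalling to actin branching through the ARP2/3 complex (ENSG00000112290, chromosome 6, 110099819 to 110180004). It stood at 4.63, 4.58 and 4.42 CPM in EV and 1.37, 1.81 and 2.83 CPM in OE, a fitted log2 change of −1.17 (SE 0.174). OE replicate 1, with high interferon-stimulated genes, was the lowest.

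NRIP1 (RIP140) is a corepressor of nuclear receptors (ENSG00000180530, chromosome 21, 14961235 to 15065936). Per length it was the most abundant of the 10 genes in MV4-11 EV of the overexpression series, at a mean of 46.1 RPKM, CPM divided by the exon length in kilobases, before DIPK1C at 4.93 and C12orf75 at 3.42 RPKM. It fell from 375, 452 and 347 CPM in EV to 208, 238 and 264 CPM in OE, a fitted log2 change of −0.73 (SE 0.093). It had the smallest fall of the 7 and the most counts, and the groups did not overlap. These values come from the comparison that chose the gene. A lncRNA that shares exons with NRIP1 on the same strand (ENSG00000235609) had 46 to 66 counts in each of these 6 libraries, beside 3478 to 9371 for NRIP1.

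AGK is a mitochondrial lipid kinase that also belongs to the TIM22 import complex of the inner membrane (ENSG00000006530, chromosome 7, 141551278 to 141655244). It rose from 6.20, 7.96 and 6.36 CPM in EV to 11.4, 13.1 and 17.1 CPM in OE, a fitted log2 change of 1.01 (SE 0.145). Every OE library lay above every EV library. An antisense lncRNA that shares exons with AGK (ENSG00000244701) had 22 to 29 counts in EV and 11 to 20 in OE, and whether reads were counted by strand is not stated.

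CNKSR2 is a scaffold of the RAS to RAF pathway, best known from neurons (ENSG00000149970, chromosome X, 21372801 to 21654695). Its libraries held 5.62, 5.88 and 4.89 CPM in EV and 8.24, 8.83 and 8.50 CPM in OE, a fitted log2 change of 0.64 (SE 0.114). It had the smallest change of the 10, with tight replicates and no overlap.

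ADAMTS9 is a secreted metalloprotease that cleaves versican (ENSG00000163638, chromosome 3, 64515654 to 64688000). It had 7, 12 and 6 counts in MV4-11 OE and 0, 1 and 0 counts in EV, so 25 counts stood against 1. Their ratio, scaled by library size, was 25.4, with an exact 95% interval of 4.16 to 1043 that covers counting error only. MV4-11 EV of the knockout series, without the miR-1 vector, had 0 to 6 counts per library, a mean of 0.335 CPM. The Molm-14 EV mean of that series was 61.3 CPM. Molm-14 held ADAMTS9 at 54.4 to 60.8 CPM in all 6 libraries of the overexpression series. The mean of MV4-11 OE was 0.457 ± 0.147 CPM (SD, n = 3), and its libraries stood at 0.735%, 1.09% and 0.586% of the Molm-14 EV mean.

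The summed level of 22 other genes was also higher in these OE libraries than in EV. They had at least 20 CPM in every Molm-14 EV library and 0 counts in every MV4-11 EV library of the knockout series, and were chosen after the ADAMTS9 values were seen. Their summed level was 2.63, 3.51 and 3.33 CPM in MV4-11 OE and 1.45, 1.83 and 1.12 CPM in MV4-11 EV. That is 0.176% to 0.236% of the Molm-14 EV mean in OE and 0.0752% to 0.123% in EV. Their part in the ADAMTS9 result was not tested.

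**Figure D1:**
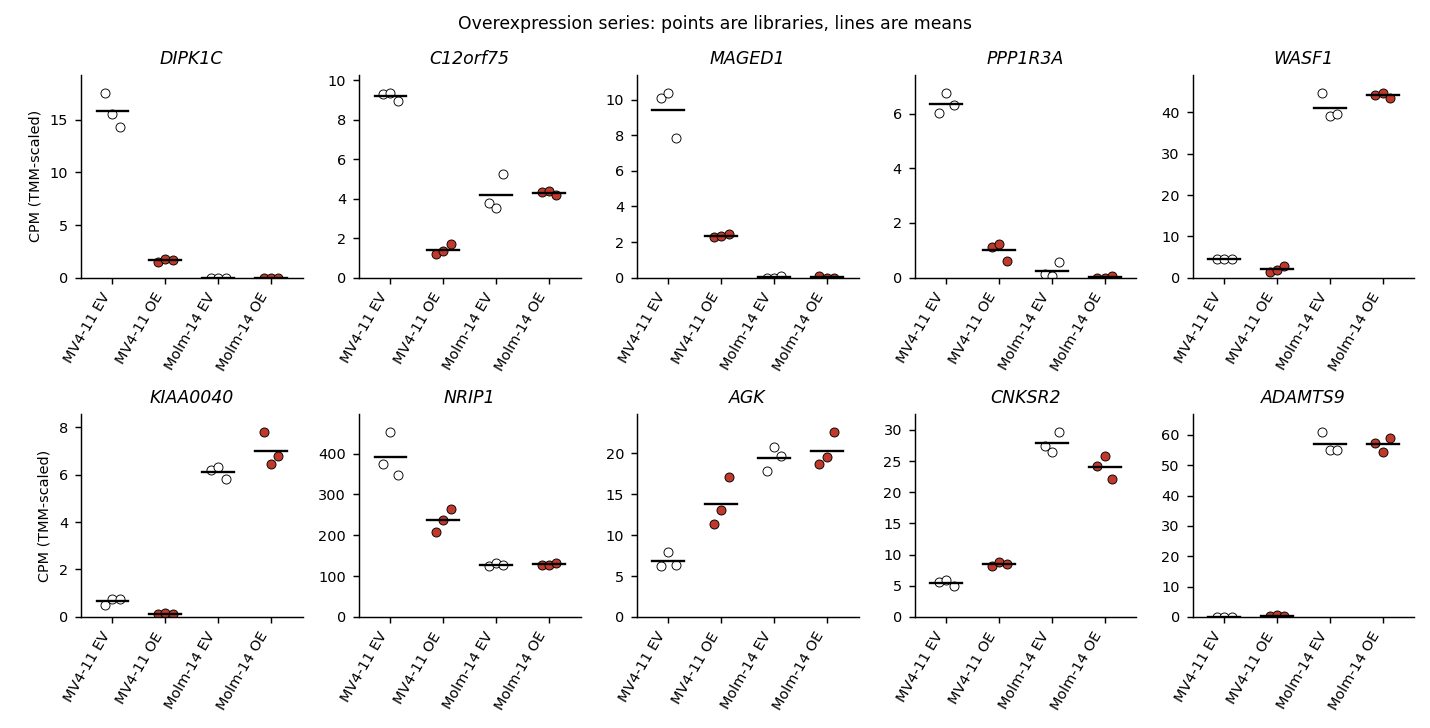
Level of the 10 genes in each library of the overexpression series, in TMM-scaled CPM on linear axes that start at 0 and differ between panels, with EV as white points, OE as red points and the group mean as a line. The 7 genes of MV4-11 that fell and the 3 that rose separate OE from EV, while the Molm-14 groups overlap for 8 of the 10 genes.

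Leaving out both MV4-11 libraries with high interferon-stimulated genes kept the direction of all 10 genes. Without them, which is an alternative chosen after the data were seen, the log2 fold changes were −3.22 for DIPK1C, −2.60 for C12orf75, −2.76 for PPP1R3A, −2.09 for MAGED1 and −0.99 for WASF1. The remaining values were −2.23 for KIAA0040, −0.72 for NRIP1, 1.08 for AGK, 0.59 for CNKSR2 and 3.88 for ADAMTS9. KIAA0040 and CNKSR2 were then no longer past the FDR. With the 6 MV4-11 libraries fitted alone, 4 were past the FDR (DIPK1C, C12orf75, MAGED1 and PPP1R3A), 4 were not (WASF1, NRIP1, AGK and CNKSR2), and KIAA0040 and ADAMTS9 did not pass the filter on low counts. With 1 replicate left out, 7 to 10 of the 10 genes were called. NRIP1 was lost without OE replicate 2 (FDR 0.0882 in edgeR), KIAA0040 without OE replicate 2, OE replicate 3 or EV replicate 2 (FDR 0.0510 to 0.0614), and CNKSR2 without OE replicate 2, EV replicate 1 or EV replicate 3 (FDR 0.0538 to 0.105). DESeq2 called 9 of the 10 and gave ADAMTS9 an adjusted p of 0.0529. OE and EV did not overlap for any of the 10, so a turn of direction was hardly possible. All these fits use libraries that chose the genes. They describe how the calls depend on libraries and settings and test nothing about the genes.

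In Molm-14, where the same vector was expressed, the 10 genes stayed close to their EV levels or were too scarce to compare. None was past the FDR by edgeR, against 0.00570% of all genes (1 gene, MIR133A1HG), and none was by DESeq2. The edgeR fit shares its estimate of spread with MV4-11. Replicate pairs differed more there (chi-square per degree of freedom 5.56 to 17.8) than in Molm-14 (2.15 to 3.24). With the Molm-14 libraries fitted alone, 195 genes were called, and none of the 10 was among them. PPP1R3A and CNKSR2 had an unadjusted p under 0.05 in edgeR, as had 768 of all 17542 tested genes. The groups did not overlap for 2 of 10 genes, 1 higher and 1 lower, against 14.9% of all tested genes.

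DIPK1C could not be compared in Molm-14, since all 6 libraries of the overexpression series had 0 counts, which allows up to 0.181 CPM in EV. MAGED1 had 2, 0 and 0 counts in OE and 0, 0 and 2 in EV, so it too was at the floor. PPP1R3A had 0, 0 and 1 counts in OE and 2, 1 and 10 in EV. The summed EV to OE ratio was 13.7 (exact 95% interval 2.06 to 582), the direction seen in MV4-11, but most of it lay in EV replicate 3 and the edgeR FDR was 1.

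KIAA0040, which has an 8mer, was higher in Molm-14 than in MV4-11, and its OE libraries were not lower. They held 7.78, 6.46 and 6.79 CPM against 6.19, 6.34 and 5.79 CPM in EV, a fitted log2 change of 0.20 (SE 0.172, FDR 1 in edgeR). Its 95% interval was −0.14 to 0.54. The 3 OE libraries lay just above the EV libraries.

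The other genes that had fallen in MV4-11 were level in Molm-14. C12orf75 stood at 4.31 ± 0.103 CPM in OE and 4.19 ± 0.938 in EV (SD, n = 3), a fitted log2 change of 0.04 with a 95% interval of −0.33 to 0.40. WASF1 stood at 44.2 ± 0.584 and 41.1 ± 3.10 CPM, with an interval of −0.10 to 0.30, and NRIP1 at 130 ± 2.98 and 128 ± 3.33 CPM, with an interval of −0.17 to 0.21. Whether these values differ from those of MV4-11 was not tested.

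Of the genes that had risen in MV4-11, AGK stood at 20.2 ± 2.04 CPM in Molm-14 OE and 19.4 ± 1.45 in EV, with an interval of −0.20 to 0.32. ADAMTS9 stood at 56.8 ± 2.28 and 56.9 ± 3.40 CPM, with an interval of −0.16 to 0.16. CNKSR2 went the other way, with 24.1, 25.9 and 22.1 CPM in OE and 27.5, 26.5 and 29.6 in EV, a fitted log2 change of −0.21 (SE 0.094, FDR 1 in edgeR). Its groups did not overlap.

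Deletion of MPC1 gave changes of both signs in the 10 genes, and C12orf75 was the gene called in more than 1 line. In MV4-11, 3 of 10 genes were called, all higher, against 5.41% of all genes. In Molm-14, 3 of 10 were called, 2 higher and 1 lower, against 2.40%. In THP-1, 0 of 10 were called by edgeR and by DESeq2, against 0.0897%. An unadjusted p under 0.05 in edgeR was found there for 1 of the 10 and for 1160 of all 14490 tested genes. Groups without overlap numbered 5 of 10 in MV4-11 (background 24.1%), 5 of 10 in Molm-14 (16.4%) and 2 of 10 in THP-1 (13.6%).

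**Figure D2:**
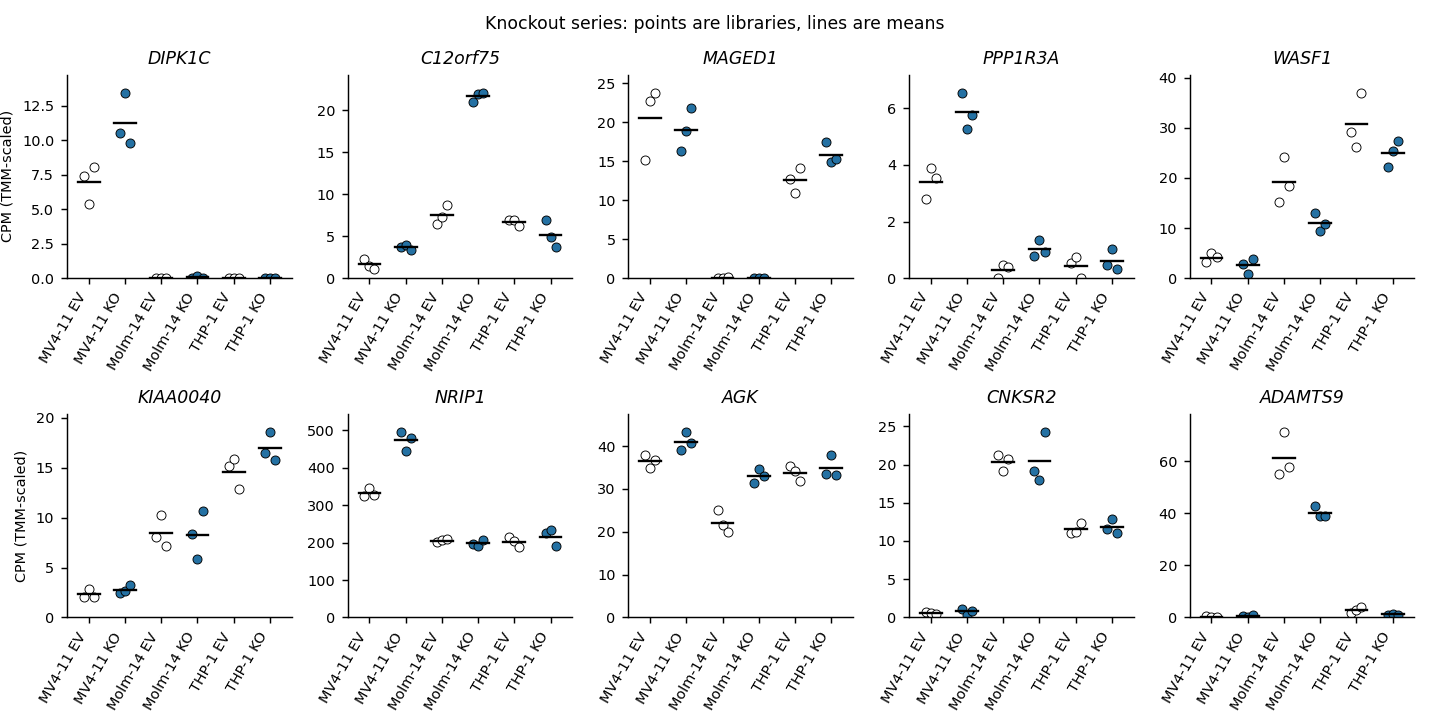
Level of the 10 genes in each library of the knockout series, in TMM-scaled CPM on linear axes that start at 0 and differ between panels, with EV as white points, KO as blue points and the group mean as a line. C12orf75 in Molm-14 and NRIP1 in MV4-11 show KO above EV in all libraries, and DIPK1C has at most 1 count in any library of Molm-14 and THP-1.

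In MV4-11 KO, 5 of the 10 genes were above EV in every library. Of these, 4 had fallen with miR-1, and the other, AGK, had risen. Over all tested genes, 24.1% did not overlap, in either direction. C12orf75 stood at 3.70, 3.89 and 3.39 CPM in KO and at 2.32, 1.48 and 1.08 CPM in EV, a fitted log2 change of 1.12 (SE 0.279, FDR 0.0193 in edgeR). It was scarce here, with 7 to 20 counts in each EV library.

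DIPK1C stood at 10.5, 13.4 and 9.80 CPM in KO and at 7.43, 5.38 and 8.02 CPM in EV, a fitted log2 change of 0.70 (SE 0.204, FDR 0.0492 in edgeR). Neither this call nor that of C12orf75 held when EV replicate 2, EV replicate 3, KO replicate 1 or KO replicate 2 was left out, with FDR between 0.114 and 0.199 for DIPK1C and between 0.0671 and 0.14 for C12orf75. With the MV4-11 libraries fitted alone the FDR was 0.0622 for DIPK1C and 0.0531 for C12orf75, and with RLE size factors, those of DESeq2, it was 0.0530 for DIPK1C. DESeq2 gave DIPK1C no adjusted p.

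NRIP1 had the firmest rise, from 324, 346 and 327 CPM in EV to 495, 444 and 481 CPM in KO. The log2 fold change was 0.51 (SE 0.077, FDR 0.000305 in edgeR), and it was called whichever library was left out. Its exon-sharing lncRNA had 38 to 41 counts in EV and 48 to 73 in KO.

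PPP1R3A was also higher in all KO libraries, at 6.54, 5.26 and 5.78 CPM against 2.79, 3.90 and 3.55 CPM, but was not called (fitted log2 change 0.78, SE 0.272, FDR 0.0876 in edgeR). WASF1 lay on the other side of EV, at 2.84, 0.877 and 3.90 CPM in KO against 3.13, 4.98 and 4.16 CPM, with overlap and no call (fitted log2 change −0.68, FDR 0.275 in edgeR). The WASF1 value was −0.25 without KO replicate 2, the lowest library, and −1.158 without KO replicate 3, not called in either case. MAGED1 overlapped fully, at 16.4 to 21.9 CPM in KO and 15.2 to 23.7 in EV, and KIAA0040 also overlapped, at 2.42 to 3.27 and 2.01 to 2.83 CPM.

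The genes that had risen with miR-1 were not called in MV4-11 KO. AGK held 39.1, 43.2 and 40.7 CPM in KO and 37.8, 34.9 and 36.9 in EV, without overlap, a fitted log2 change of 0.17 (95% interval −0.03 to 0.36). CNKSR2 and ADAMTS9 had at most 8 counts in any MV4-11 library of this series, too few to place them.

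In Molm-14 KO, C12orf75 made the largest rise of the genes with enough counts. Its KO libraries held 20.95, 21.95 and 22.03 CPM and its EV libraries 6.39, 7.32 and 8.70 CPM, a fitted log2 change of 1.52 (SE 0.170, FDR 1.24e-06 in edgeR). The lowest KO library was over the highest EV library by a wide margin, and the call held whichever library was left out. APPL2 over the same locus had 97 to 135 counts in KO and 122 to 181 in EV.

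AGK rose in Molm-14 KO from 25.1, 21.5 and 19.9 CPM to 31.3, 34.7 and 33.1 CPM, a fitted log2 change of 0.59 (SE 0.106, FDR 0.00113 in edgeR). This call too held without each library. PPP1R3A, at 5, 10 and 6 counts in KO and 0, 4 and 3 in EV, was higher in every KO library but was not called (FDR 0.233 in edgeR).

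ADAMTS9 fell in Molm-14 KO from 55.0, 71.0 and 57.9 CPM to 42.7, 38.7 and 38.9 CPM, a fitted log2 change of −0.62 (SE 0.151, FDR 0.0218 in edgeR). The groups did not overlap, but the call was lost without EV replicate 2 or 3 or any 1 of the 3 KO replicates, with FDR from 0.0521 to 0.177. WASF1 was likewise below EV in all libraries, at 12.9, 9.45 and 10.8 CPM against 15.1, 24.2 and 18.5 CPM, and narrowly missed the threshold (fitted log2 change −0.82, SE 0.229, FDR 0.0644 in edgeR). It was called without EV replicate 1 (FDR 0.0296), by DESeq2 (adjusted p 0.0478) and with only the Molm-14 libraries fitted (FDR 0.0177).

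NRIP1, which rose in MV4-11 KO, was level in Molm-14 KO, at 197, 192 and 206 CPM against 201, 208 and 209 CPM in EV. Its 95% interval was −0.21 to 0.10. KIAA0040 (5.85 to 10.6 CPM in KO, 7.12 to 10.2 in EV) and CNKSR2 (17.96 to 24.22 and 19.1 to 21.2 CPM) overlapped. DIPK1C and MAGED1 had at most 1 count in any Molm-14 library of this series.

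In THP-1 KO no call was made, and the widest shift was in ADAMTS9, a scarce gene in this line. It had 7, 10 and 5 counts in KO and 13, 20 and 22 in EV, a fitted log2 change of −1.28 (SE 0.401, FDR 0.385 in edgeR), with no overlap in CPM. MAGED1 was above EV in every library, at 17.4, 14.9 and 15.2 CPM against 12.8, 10.9 and 14.1 CPM, and was not called either (fitted log2 change 0.33, FDR 0.661 in edgeR).

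C12orf75 in THP-1 stood at 6.94, 4.90 and 3.69 CPM in KO and 6.92, 6.88 and 6.16 in EV (fitted log2 change −0.36, 95% interval −0.78 to 0.06). WASF1 was at 25.0 ± 2.57 CPM in KO and 30.8 ± 5.56 in EV. NRIP1 (216 ± 22.5 and 202 ± 13.2 CPM), AGK (34.9 ± 2.66 and 33.8 ± 1.76) and CNKSR2 (11.9 ± 0.961 and 11.5 ± 0.696) differed by less than 1 SD of the wider group. KIAA0040 stood at 16.9 ± 1.46 and 14.6 ± 1.56 CPM, and DIPK1C had 0 counts in all 6 libraries. PPP1R3A was scarce, at 3, 7 and 2 counts in KO and 4, 5 and 0 in EV (0.613 ± 0.375 and 0.427 ± 0.385 CPM), and overlapped (fitted log2 change 0.44, FDR 0.888 in edgeR).

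**Figure D3:**
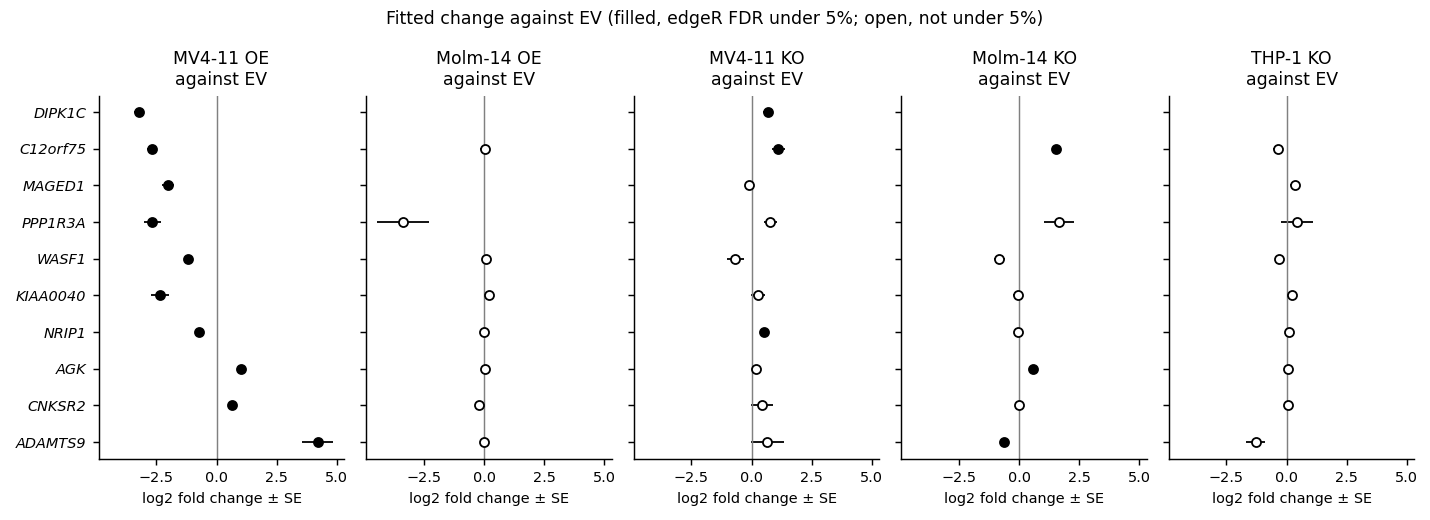
Log2 fold change against EV with its SE for each gene in 5 comparisons, with filled points for an edgeR FDR under 5%, and no point where both groups hold at most 3 counts in all. The genes were chosen in the first panel, whose ADAMTS9 point rests on 1 count in EV; in the KO panels C12orf75 lies right of 0 in MV4-11 (1.12) and Molm-14 (1.52) and left of it in THP-1 (−0.36).

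The difference of the KO effect between lines was tested directly, since a call in 1 line and not in another does not show that the lines differ. The effect on NRIP1 was lower in Molm-14 than in MV4-11, with a difference of −0.56 on the log2 scale (SE 0.111, FDR 0.00637 in edgeR), 1 call in 10 against a background of 1.48%. The effect on C12orf75 was lower in THP-1 than in Molm-14, with a difference of −1.88 (SE 0.274, FDR 0.00024 in edgeR), 1 call in 10 against 0.766%. Both differences were called whichever library was left out.

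Between THP-1 and MV4-11 no gene of the 10 was called by edgeR, against 0.193% of all genes. An unadjusted p under 0.05 was found for 1311 of all 14490 tested genes and for 3 of the 10. The nearest was C12orf75 (−1.47, SE 0.352, FDR 0.0889 in edgeR), which was called without MV4-11 EV replicate 1 (FDR 0.0252) or without THP-1 KO replicate 1 (FDR 0.0314). DESeq2 called NRIP1 here (adjusted p 0.0348), where edgeR gave −0.41 with an FDR of 0.15. The rises of C12orf75 in MV4-11 and Molm-14 were not shown to differ (difference 0.41, 95% interval −0.26 to 1.08). AGK, called in Molm-14 only, had differences of 0.42 between Molm-14 and MV4-11 (FDR 0.158 in edgeR) and −0.54 between THP-1 and Molm-14 (FDR 0.101 in edgeR), so the lines were not shown to differ.

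The values of both experiments in MV4-11 were placed beside each other by gene. Signs were opposite for C12orf75 (−2.69 with OE, 1.12 with KO), DIPK1C (−3.23 and 0.70) and NRIP1 (−0.73 and 0.51). The OE calls follow from the selection. The KO values of these 3 genes were called, as were 5.41% of all genes. Of the KO calls, only that of NRIP1 held whichever library was left out. Opposite signs were also found for PPP1R3A (−2.67 and 0.78) and KIAA0040 (−2.35 and 0.27), whose KO values were not called. The other 5 genes had the same sign in both, and none of their KO values was called. They were WASF1 (−1.17 and −0.68), MAGED1 (−2.0045 and −0.10), AGK (1.01 and 0.17), CNKSR2 (0.64 and 0.43) and ADAMTS9 (4.21 and 0.65). The libraries of the 2 experiments, EV included, are different, and the first value of each pair is the one that chose the gene.

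The EV libraries of the lines differed in most of the 10 genes, as they did in most genes tested. In the EV libraries of the knockout series, 10 of 10 were called between Molm-14 and MV4-11 (61.7% of all genes), 9 of 10 between THP-1 and MV4-11 (67.5%) and 6 of 10 between THP-1 and Molm-14 (69.6%).

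DIPK1C was found in MV4-11 EV, at 6.94 ± 1.38 CPM (SD, n = 3), and had 0 counts in every Molm-14 and THP-1 EV library. Against a floor of 3 counts per library, MV4-11 was at least 16.8-fold higher than Molm-14 and at least 14.98-fold higher than THP-1. In the overexpression series the bound was at least 87.1-fold for MV4-11 EV over Molm-14 EV.

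MAGED1 was ordered MV4-11 (20.6 ± 4.67 CPM), THP-1 (12.6 ± 1.62) and Molm-14, where it had 1 count in 3 libraries. The ratio of MV4-11 to Molm-14 was 452, with an exact 95% interval of 80.7 to 17880, and that of THP-1 to Molm-14 was 281 (49.9 to 11130). MV4-11 and THP-1 also differed (THP-1 lower by −0.70 on the log2 scale, SE 0.174, FDR 0.000981 in edgeR).

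PPP1R3A was highest in MV4-11 (3.41 ± 0.571 CPM), while THP-1 (0.427 ± 0.385) and Molm-14 (0.282 ± 0.246) did not differ beyond their spread. NRIP1 had the same shape, with 332 ± 12.2 CPM in MV4-11, 206 ± 4.53 in Molm-14 and 202 ± 13.2 in THP-1, the last pair again not separated (FDR 0.798 in edgeR). C12orf75 was the reverse, lowest in MV4-11 (1.63 ± 0.634 CPM), with Molm-14 (7.47 ± 1.164) and THP-1 (6.65 ± 0.425) not separated (FDR 0.452 in edgeR).

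WASF1 and KIAA0040 were lowest in MV4-11, higher in Molm-14 and highest in THP-1, with every step called. WASF1 stood at 4.09 ± 0.926, 19.3 ± 4.58 and 30.8 ± 5.56 CPM, and KIAA0040 at 2.31 ± 0.453, 8.48 ± 1.599 and 14.6 ± 1.56 CPM. CNKSR2 was lowest in MV4-11 (0.566 ± 0.119 CPM), higher in THP-1 (11.5 ± 0.696) and highest in Molm-14 (20.3 ± 1.07), also with every step called.

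ADAMTS9 was a gene of Molm-14, at 61.3 ± 8.54 CPM against 2.90 ± 1.13 in THP-1 and 0.335 ± 0.349 in MV4-11, each step called. AGK was lower in Molm-14 (22.1 ± 2.63 CPM) than in MV4-11 (36.5 ± 1.51) and THP-1 (33.8 ± 1.76), which were not separated (log2 difference −0.11, 95% interval −0.31 to 0.09).

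The same line difference could be set beside that of the overexpression series as a ratio within each table. For AGK and C12orf75 it turned around. AGK was 2.84-fold higher in Molm-14 EV than in MV4-11 EV in the overexpression series (19.4 ± 1.45 against 6.84 ± 0.973 CPM), but 1.65-fold higher in MV4-11 EV than in Molm-14 EV in the knockout series (36.5 ± 1.51 against 22.1 ± 2.63 CPM).

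C12orf75 was 2.20-fold higher in MV4-11 EV in the overexpression series (9.21 ± 0.223 against 4.19 ± 0.938 CPM) and 4.59-fold higher in Molm-14 EV in the knockout series (7.47 ± 1.164 against 1.63 ± 0.634 CPM). The EV libraries did not overlap between lines for either gene in either series. The direction of the other 7 genes that could be set side by side was the same in both series. The size was not. With the overexpression series first, Molm-14 EV was higher 5.10-fold and 35.9-fold for CNKSR2, the second resting on 13 counts in all of MV4-11 EV. The values were 9.05 and 4.71 for WASF1, and 8.89 and 3.675 for KIAA0040. MV4-11 EV was higher 24.75-fold and 12.1-fold for PPP1R3A, and 3.06-fold and 1.62-fold for NRIP1. The PPP1R3A ratios rest on 13 and 7 counts in all of Molm-14 EV. AGK, C12orf75, CNKSR2 and NRIP1 shifted between series by more than their MV4-11 OE change, and PPP1R3A, WASF1 and KIAA0040 by less. The 2 tables were counted on different annotation releases and from different cultures and vectors, and these cannot be told apart as sources of the turn. The tables were normalized separately, so only the ratios within each are set side by side.

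**Figure D4:**
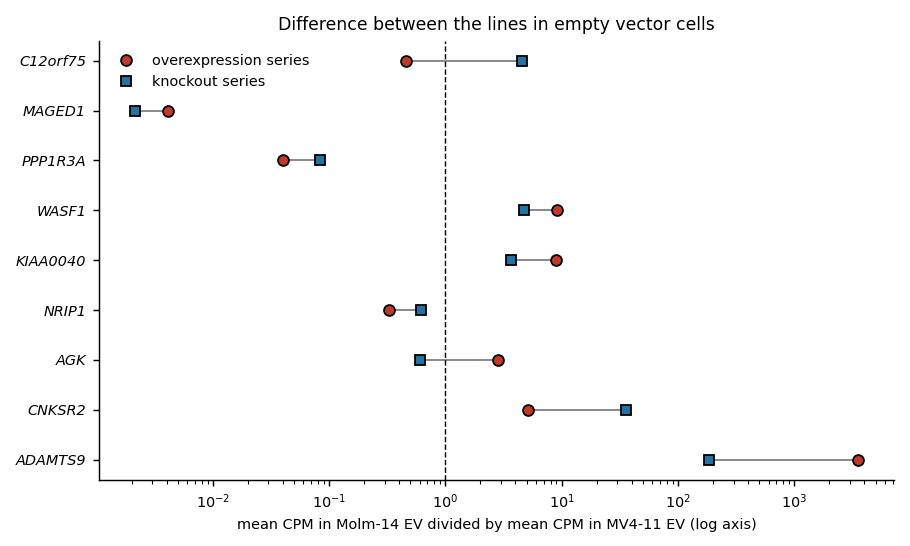
Mean CPM in Molm-14 EV divided by mean CPM in MV4-11 EV on a log axis, in the overexpression series (red circles) and the knockout series (blue squares), for the 9 genes with counts in both lines. AGK (2.84 and 0.606) and C12orf75 (0.455 and 4.59) lie on opposite sides of 1 in the 2 series, and the ADAMTS9 and MAGED1 ratios of the overexpression series rest on 1 and 2 counts in the low line. In the knockout series the low line held 13 counts for CNKSR2, 8 for ADAMTS9, 7 for PPP1R3A and 1 for MAGED1.

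Partners and relatives of the 10 genes were examined in 8 lists of 127 genes, which covered DIPK-related kinases, type II MAGE genes, glycogen-targeting subunits and glycogen enzymes, the WAVE and ARP2/3 complexes, nuclear receptors with their co-regulators, the TIM22 complex with lipid kinases, RAS to RAF scaffolds and ADAMTS proteases. Of these, 105 were tested in the overexpression series. By edgeR 0 were called in MV4-11 OE, against 0.177% of all genes, and 0 in Molm-14 OE, against 0.00570%. With shares this low, 0 calls do not show that the lists were unaffected. The median log2 fold changes of the lists in MV4-11 OE ran from 0.00 to 0.12, beside 0.01 over all genes tested.

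In the knockout series 106 were tested. In MV4-11 KO 1 was called (0.943%, against 5.41% of all genes), ADAMTS10, a protease linked to fibrillin microfibrils, which rose from 2.79 ± 0.915 to 6.44 ± 0.515 CPM (SD, n = 3, log2 fold change 1.18, SE 0.232, FDR 0.00404 in edgeR). In Molm-14 KO 2 were called (1.89%, against 2.40% of all genes), both from the NRIP1 list. PPARG, a lipid-sensing nuclear receptor, rose from 0.532 ± 0.338 to 2.56 ± 0.469 CPM (fitted log2 change 2.22, SE 0.382, FDR 0.000579 in edgeR). NCOA1, a coactivator of nuclear receptors, fell from 15.4 ± 2.24 to 9.71 ± 0.881 CPM (fitted log2 change −0.67, SE 0.151, FDR 0.0108 in edgeR). In THP-1 KO 0 of 106 were called by edgeR, against 0.0897% of all genes.

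The genes most like each of the 10 over the 18 libraries of the knockout series were found by Pearson correlation of log2 CPM among 11725 genes. The points share 3 lines, so these values follow the line differences above and are descriptions. DIPK1C was most like LXN (0.996) and H3C6 (0.995), MAGED1 most like UNC5C (0.997) and ENSG00000255310 (0.996), and CNKSR2 most like ZDHHC2 (0.996) and CCL28 (0.994). ADAMTS9 was most like CACHD1 (0.983) and KIAA0513 (0.983), KIAA0040 most like RAB3GAP2 (0.982), and WASF1 most like ATP6V0A1 (0.978) and GMCL1 (0.974).

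Of the remaining genes, NRIP1 was most like UBE2Q2 (0.980) and FUCA1 (0.972, but 0.730 by Spearman). AGK was most like CCR1 (0.945) and HLA-B (0.925). C12orf75 was most like ZNF200 (0.922) and SUCLG2 (0.914), a subunit of the TCA cycle enzyme succinyl-CoA synthetase. PPP1R3A was most like SCIMP (0.947) and HTR7 (0.946). The highest value for C12orf75 was thus the lowest of the 10 genes.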

How the data were processed

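Total RNA of 30 libraries was sequenced after depletion of ribosomal RNA with a stranded kit. The authors trimmed reads (cutadapt 1.16), aligned them to GRCh38 (STAR 2.7.6a) and assigned them to Ensembl genes (featureCounts 1.6.3), per the submitters' processing notes, and removed optical duplicates. The deposited values were raw whole-number counts per gene, in 1 table per series. Whether strand was used in counting is not given in the sources used here. Library totals were 15543301 to 20939985 counts (overexpression) and 5339360 to 9106478 (knockout). Where a library had 0 counts, up to 3 are allowed, and floors and intervals cover counting error only, since PCR copies are not independent molecules.

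Counts were tested with edgeR 4.0.16 in R 4.3.3 (filterByExpr, TMM factors, robust quasi-likelihood, a mean per group, all libraries of a table in 1 model), with Benjamini-Hochberg adjustment over all tested genes and a 5% FDR. The SE is the log2 fold change divided by the square root of F. Alternatives were DESeq2 1.42.0, its size factors (RLE), no filter beyond 1 count, only the line or lines compared, the replicate number as a block, and each replicate left out. The fits were tested on simulated counts. Replicate pairs differed beyond counting noise (chi-square per degree of freedom 1.55 to 17.8), and every library was kept.

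All 10 genes, in every group, are named, with called genes of the partner lists and the 2 genes most like each, of which 1 is not reported here. The members and lists were chosen with earlier results of these data known. Symbols, positions and 3′ UTRs came from GENCODE release 44, which matched all 10 genes.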

Additional observations from a re-analysis of the deposited data

Results flagged for a closer look

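The effect of MPC1 deletion differed between lines for 2 of the 10 genes, by a direct test of the difference in edgeR. The NRIP1 effect was −0.56 on the log2 scale in Molm-14 relative to MV4-11. NRIP1 was higher than every EV library in 3 of 3 MV4-11 KO libraries and overlapped in Molm-14. The C12orf75 effect was −1.88 on the log2 scale in THP-1 relative to Molm-14. C12orf75 was higher than every EV library in 3 of 3 Molm-14 KO libraries and overlapped in THP-1. Groups of 3 libraries are too small for an outlier test.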

How the results depend on the processing

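In MV4-11 OE against EV, 31 genes were called, and 123 with no filter beyond 1 count, 65 by DESeq2, 9 with the MV4-11 libraries alone, 76 without both libraries with high interferon-stimulated genes and 12 to 47 with 1 replicate left out, the lowest without OE replicate 2 and the highest without OE replicate 1. Of the 10 genes, 4 were called with the MV4-11 libraries alone. In Molm-14 OE, 1 gene was called, and 7 with no filter, 5 by DESeq2, 195 with the Molm-14 libraries alone and 6 without both of those MV4-11 libraries. In MV4-11 KO, 784 were called, 356 with the line alone and 133 to 1400 with 1 replicate left out (the extremes without EV replicate 3 and EV replicate 1). Of the 10 genes, 3 were called there, 1 with the line alone and 1 to 3 with 1 replicate left out. In Molm-14 KO, 348 were called, and 183 to 293 with 1 replicate left out. In THP-1 KO, 13 were called, 30 with no filter, 26 by DESeq2, 4 with the line alone and 3 to 10 with 1 replicate left out. For the KO effect of Molm-14 minus MV4-11, 215 were called, 339 with no filter and 105 to 369 with 1 replicate left out. For THP-1 minus MV4-11, 28 were called, 80 with no filter, 72 by DESeq2 and 18 to 53 with 1 replicate left out. Of the 10 genes 0 were called there, 1 with no filter, 1 by DESeq2 and 0 to 1 with 1 replicate left out. The cause of these shifts was not tested.

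The replicate numbers are only names here. Libraries of the same number deviated together with correlations of −0.38 to 0.33, and in no line was every pair above 0.1. In THP-1, where they were 0.18, 0.0987 and 0.33, 1 of the 3 was just under that limit, and not every library correlated best with its own number. With a replicate block, 15 genes were called in MV4-11 OE, 2 in Molm-14 OE, 1474 in MV4-11 KO, 388 for Molm-14 minus MV4-11 and 52 for THP-1 minus MV4-11. Of the 10 genes, 8 were called in MV4-11 OE with the block, without KIAA0040 (FDR 0.0656 in edgeR) and CNKSR2 (FDR 0.193 in edgeR), and DIPK1C was lost in MV4-11 KO (FDR 0.0625 in edgeR).

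The called values of the 10 genes kept their direction in every alternative. In MV4-11 OE the groups did not overlap for any of the 10, so a turn was hardly possible there. Values that turned were not called. In Molm-14 OE, ADAMTS9 turned to 0.00028 with RLE size factors and 0.0014 by DESeq2. For the EV level of THP-1 against Molm-14, NRIP1 turned to 0.037 with RLE size factors, 0.0045 with no filter and 0.034 by DESeq2. With 1 replicate left out, the ranges that crossed 0 in Molm-14 OE were −0.072 to 0.24 for C12orf75, −0.000635 to 0.039 for NRIP1, −0.026 to 0.11 for AGK and −0.028 to 0.054 for ADAMTS9. In MV4-11 KO the range for MAGED1 was −0.28 to 0.018. In Molm-14 KO they were −0.28 to 0.15 for KIAA0040 and −0.13 to 0.098 for CNKSR2. In THP-1 KO they were −0.17 to 0.99 for PPP1R3A, −0.017 to 0.085 for AGK and −0.020 to 0.095 for CNKSR2. For Molm-14 minus MV4-11, WASF1 ran from −0.57 to 0.33. For THP-1 minus MV4-11, PPP1R3A ran from −0.96 to 0.21, WASF1 from −0.042 to 0.86 and KIAA0040 from −0.23 to 0.078. For THP-1 minus Molm-14, CNKSR2 ran from −0.049 to 0.18. For the EV level of THP-1 against Molm-14, PPP1R3A ran from −0.028 to 0.98 and NRIP1 from −0.073 to 0.023. CPM without TMM factors moved 6 of 100 group means by more than 1 SD, and Spearman in place of Pearson moved 2 of 20 likeness values by more than 0.1. These were FUCA1 with NRIP1 (0.972 to 0.730) and ENSG00000255310 with MAGED1 (0.996 to 0.882).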
